A study of Mus musculus with 12 samples.

Results

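The genes described here encode the subunits of the oxidative phosphorylation machinery, that is, complexes I to IV of the respiratory chain and the ATP synthase (complex V). They were taken from the expression table of mouse lung endothelial cells (MLECs) by their mouse symbols (Nduf, Sdh, Uqcr, Cyc1, Cox4 to Cox8, Atp5 and the protein-coding mt- genes) and had to be annotated as protein coding. This gave 100 genes of the 28689 in the table, 87 in the nuclear genome and 13 in mitochondrial DNA (mtDNA). They comprised 43 genes of complex I, 4 of complex II, 10 of complex III, 23 of complex IV (with Ndufa4 and Ndufa4l2, which were named after complex I) and 20 of complex V with its inhibitor Atp5if1. Another 11 rows bore such symbols but were annotated as pseudogenes and were left out. Cox5b-ps, a near-identical copy of Cox5b (99.2% over 497 bases), is annotated as protein coding and was kept in complex IV.

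The question was how these genes differed between MLECs of dKO mice, in which Sp1 and Sp3 were targeted in the endothelium, and of CTR mice. In dKO mice both alleles of Sp1 and of Sp3 were floxed (Sp1 fl/fl, Sp3 fl/fl), and VE-CAD-CreERT2, a tamoxifen-dependent Cre driven by the VE-cadherin promoter, deleted them in cells that use this promoter. CTR mice were littermates with the same floxed alleles and no Cre, labelled WT, and both groups received tamoxifen on 5 consecutive days. The mice were adult males. MLECs were selected with beads against CD31 and then ICAM2 and cultured, and each group had 6 libraries. The number of mice per library was not given, so the p-values measure the spread between these libraries. The columns of the dKO libraries are named after tamoxifen and were matched by elimination. Values are FPKM, a fragment number divided by gene length and library size, with 15523054 to 17938286 fragments per library.

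The respiratory complexes pass electrons from NADH and succinate to oxygen. Complexes I, III and IV pump protons across the inner mitochondrial membrane, and complex V uses the returning protons to make ATP. A small core of hydrophobic subunits is encoded in mtDNA and transcribed inside the mitochondrion, whereas complex II and all other subunits come from nuclear genes, so both genomes must supply parts of complexes I, III, IV and V. Sp1 and Sp3 are transcription factors that bind GC boxes (GGGCGG), and endothelial cells in culture draw much of their ATP from glycolysis.

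Sp1 lay at 19.4, 20.7 and 23.7 FPKM in CTR (lowest, median and highest library) and 8.42, 10.99 and 12.1 in dKO, so all 6 dKO libraries were below all CTR libraries (log2 fold change -0.95 ± 0.09, adjusted p = 5.68e-06; here and below the error is the standard error, and p is from limma with Benjamini-Hochberg adjustment over all 12467 genes tested). Sp3 overlapped between the groups (log2 fold change -0.14 ± 0.07, adjusted p = 0.0902), and only 2 of 6 dKO libraries were below every CTR library. It passed as lower after rescaling to TPM (log2 fold change -0.20, adjusted p = 0.0496). Leaving out CTR replicate 6 gave -0.18 and an adjusted p of 0.0326. These are mRNA values of whole genes. For protein, the paper reported less Sp1 and Sp3 by immunofluorescence in the aortic endothelium of dKO mice. Its supplement also holds western blots of Sp1 and Sp3 in isolated endothelial cells of both groups, called aortic in the legend. The outcome of these blots for Sp1 and Sp3 is not stated in its text. The dKO libraries also differed in their markers of cell types. Endothelial markers were higher for 12 of 14 genes (summed FPKM 243 to 381 in CTR, 433 to 591 in dKO), macrophage markers for 10 of 10 (708 to 1238 and 2316 to 5271) and mesothelial markers for 5 of 6 (28.8 to 38.6 and 66.3 to 146). Fibroblast markers were lower for 5 and higher for 1 of 7 tested (2162 to 2738 and 835 to 1679), and lung epithelial markers were higher for 1 of 6 (85.2 to 513 and 147 to 359). No marker in these lists was at 0 in all libraries. The part of these cell types in the results below was not tested, and in such bulk samples fewer cells of a type and less RNA per cell cannot be told apart. One label names retina as the source of the RNA, but retina markers summed to at most 0.490 FPKM and 0 of 6 reached the level needed for a test.

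Of the 100 subunit genes, 96 reached 1 FPKM in at least 6 of the 12 libraries and were tested. In dKO, 30 were higher and 10 lower, and 56 did not pass an adjusted p of 0.05. Over all genes tested, 20.4% were higher and 32.6% lower, 53.1% together, so the subunits were called higher more often (31.2%) and lower less often (10.4%) than the background, a description with no test. Their median log2 fold change was 0.10, beside -0.10 for all genes, and 75 of the 96 lay above that median. Most changes were small: 1 subunit (Cox6a2) passed the study's fold threshold of 1.5 on the log2 scale, which 1.98% of all genes passed. The study applied its threshold to DESeq2 results, and the legend of its heatmap gives the cut as 1.5-fold. The numbers here are therefore not counts by the study's own method. For 12 of the 96 subunits every dKO library lay above every CTR library, a share near the 11.3% of all genes. For 6 of the 96 every dKO library lay below, a smaller share than the 16.1% of all genes. The exact two-sided permutation p of such a gene was 0.00216, the smallest that 6 libraries against 6 can give.

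**Figure D1:**
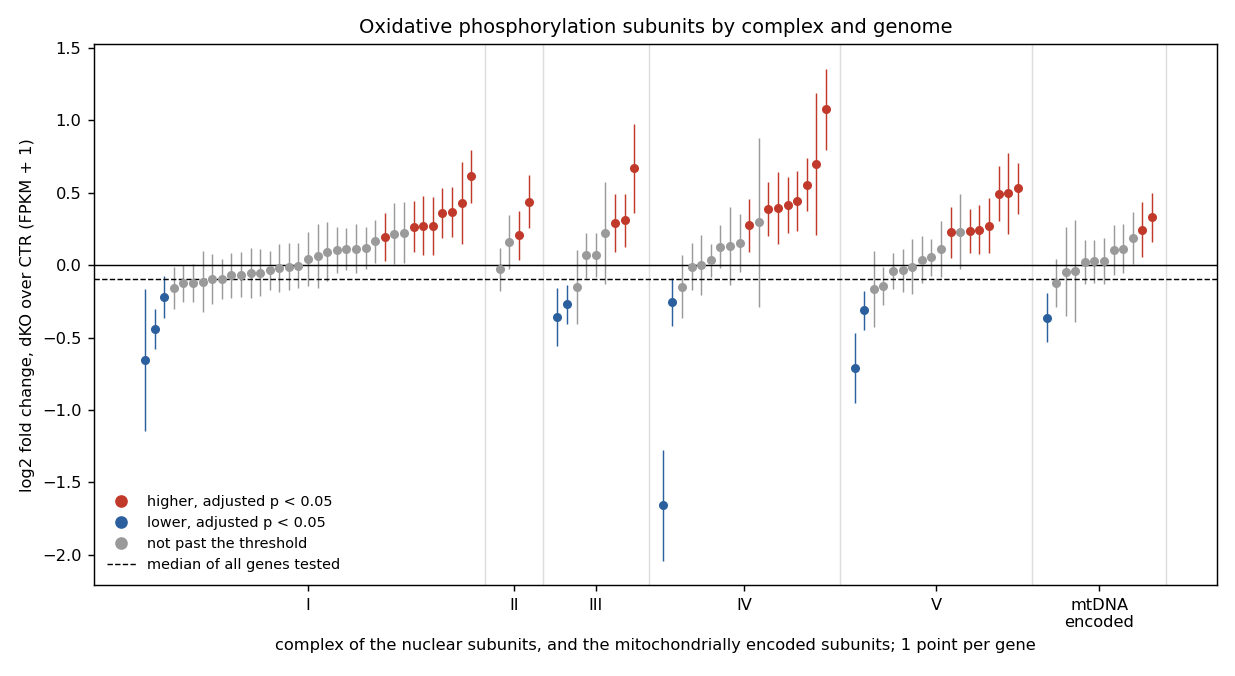
Log2 fold change (dKO over CTR, FPKM + 1) of the 96 subunits tested, 1 point per gene with its 95% interval, ordered by value within each complex for nuclear genes and in a last block for mtDNA genes. Each complex holds genes on both sides of 0, and Cox6a2 at -1.66 and Cox6b2 at 1.08 are the extremes.

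The nuclear subunits were higher for 28 and lower for 9 of 84 tested (median 0.11), and the mtDNA-encoded subunits were higher for 2 and lower for 1 of 12 (median 0.03). How many were called in each direction depended on the scaling. After rescaling to TPM, 25 of the 96 were higher and 15 lower (all genes 17.96% and 36.9%), and quantile normalization also gave 25 and 15 (all genes 22.7% and 27.8%). Median-of-ratios scaling gave 41 and 8 (all genes 25.5% and 24.6%). In each of these the median of the subunits lay above that of all genes, by 0.11 to 0.20. The nuclear subunits are short genes, with a median length of 1372 bases in the table beside 4050 for all genes tested. Of the 64 shorter than 2344 bases, 35.9% were higher and 10.9% lower, beside 22.8% and 27.5% of the 3117 genes tested below that length. With the trends of length and GC content removed from each library, 29 of the 96 subunits were higher and 15 lower, and their median was 0.08 beside -0.05 for all genes.

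Some libraries were high for many nuclear subunits at once. Their summed FPKM was 3864, 4047 and 4445 in CTR (lowest, median and highest) and 4141, 4303 and 5000.2 in dKO. The groups overlapped, and dKO replicates 1 (4846) and 6 (5000.2) stood above all other libraries. In dKO, replicate 6 was the highest library for 51.2% of the 84 nuclear subunits tested, beside 15.3% of all genes, and replicate 1 for 33.3%, a share near the 32.8% of all genes. In CTR, replicate 1 was the highest for 52.4%, beside 21.2% of all genes. Without dKO replicates 1 and 6, an analysis chosen after these values were seen, 20 subunits were higher and 16 lower (20.8% and 16.7%), beside 18.3% and 32.8% of all genes. The share of higher calls was then close to that of all genes, and the median was 0.04, beside -0.10 for all genes.

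**Figure D2:**
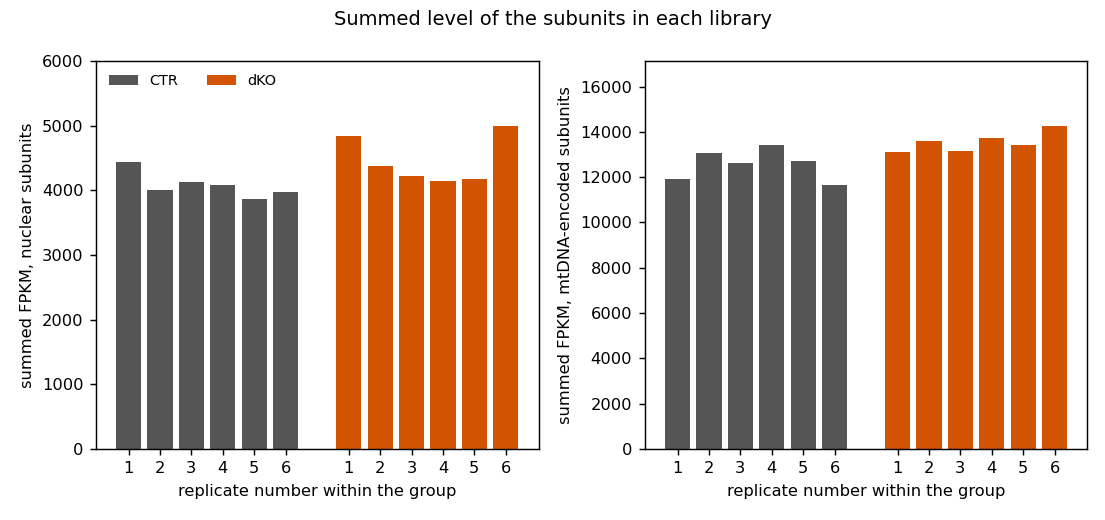
Summed FPKM of the 87 nuclear (left) and the 13 mtDNA-encoded subunit genes (right) in each library, with the replicate number on the horizontal axis. In the left panel dKO replicates 1 and 6 are the highest bars, at 4846 and 5000.2. In the right panel CTR spans 11672 to 13416 and dKO 13105 to 14273.

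Because Sp1 and Sp3 bind GC boxes, the promoters of the subunits were read for these letters. RefSeq promoter windows of the GRCm38.p6 build, from 250 bases before to 50 after the start, matched 68 of the 87 nuclear subunits, 13 of them by an older symbol, and the first window of a gene was used. GGGCGG or CCGCCC stood in 27 of the 68 (39.7%), in 66.5% of the 8981 coding genes tested that had a window and in 35.9% of all 27025 windows. In the shorter window from 100 bases before the start the shares were 30.9%, 56.6% and 29.4%. The letters GCGCATGC or GCATGCGC, part of the motif of NRF1 (a regulator of respiratory genes), stood in 14.7%, 5.73% and 2.80% of the longer windows. CCAAT or ATTGG stood in 42.6%, 38.6% and 37.9%, CCGGAAG or CTTCCGG, part of the motif of ETS factors, in 22.1%, 19.02% and 9.12%, and the E-box CACGTG in 8.82%, 10.4% and 7.24%. Both strands were read, and the motifs may overlap.

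Calls of both directions were found with and without a GC box. Of the 26 tested with one, 10 were higher and 4 lower (38.5% and 15.4%, median log2 fold change 0.13), beside 20.05% and 32.9% of all coding genes tested with one. Of the 39 without one, 12 were higher and 2 lower (30.8% and 5.13%, median 0.11), beside 22.1% and 32.96% of all coding genes tested without one. Among all coding genes tested the medians were -0.09 with and -0.09 without a box. The 250 bases before the start are given for the 3 subunits with the largest fall and the 3 with the largest rise among those with a window, with the GC boxes in capitals, read 5′ to 3′ along the gene. Ndufs3 holds 2 boxes there, Cox6b2 and Ndufa1 hold 1 each, and Atp5mc1, Ndufa6 and Uqcrh hold none, although the window of Ndufa6 that runs 50 bases past the start has 1. The windows lie in GRCm38.p6 at chr11:96075632-96075881, minus strand (Atp5mc1), chr2:90904722-90904971, minus strand (Ndufs3), chr15:82354292-82354541, minus strand (Ndufa6), chr7:4753095-4753344, minus strand (Cox6b2), chr4:116075071-116075320, minus strand (Uqcrh) and chrX:37191239-37191488, minus strand (Ndufa1).
Atp5mc1: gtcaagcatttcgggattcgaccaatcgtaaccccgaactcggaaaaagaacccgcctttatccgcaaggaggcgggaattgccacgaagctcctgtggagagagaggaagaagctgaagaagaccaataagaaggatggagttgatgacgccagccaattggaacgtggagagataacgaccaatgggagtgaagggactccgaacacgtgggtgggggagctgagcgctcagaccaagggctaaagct
Ndufs3: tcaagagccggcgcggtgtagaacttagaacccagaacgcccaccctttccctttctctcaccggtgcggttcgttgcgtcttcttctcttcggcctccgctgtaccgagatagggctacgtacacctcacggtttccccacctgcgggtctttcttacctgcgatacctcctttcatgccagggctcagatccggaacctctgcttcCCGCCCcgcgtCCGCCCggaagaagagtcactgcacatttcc
Ndufa6: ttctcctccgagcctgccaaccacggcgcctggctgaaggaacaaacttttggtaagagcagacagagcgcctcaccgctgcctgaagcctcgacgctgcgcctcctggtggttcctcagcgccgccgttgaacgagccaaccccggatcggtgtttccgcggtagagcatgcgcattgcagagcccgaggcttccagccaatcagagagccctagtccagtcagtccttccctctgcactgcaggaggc
Cox6b2: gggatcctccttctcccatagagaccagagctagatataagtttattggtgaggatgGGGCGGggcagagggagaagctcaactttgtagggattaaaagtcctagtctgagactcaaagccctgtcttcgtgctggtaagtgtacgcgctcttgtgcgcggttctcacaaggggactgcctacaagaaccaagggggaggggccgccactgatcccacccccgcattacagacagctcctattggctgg
Uqcrh: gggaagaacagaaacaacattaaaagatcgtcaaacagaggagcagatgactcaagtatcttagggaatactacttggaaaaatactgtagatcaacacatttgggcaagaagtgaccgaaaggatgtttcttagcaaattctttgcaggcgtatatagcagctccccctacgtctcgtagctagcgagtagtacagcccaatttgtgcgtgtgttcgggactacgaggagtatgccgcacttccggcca
Ndufa1: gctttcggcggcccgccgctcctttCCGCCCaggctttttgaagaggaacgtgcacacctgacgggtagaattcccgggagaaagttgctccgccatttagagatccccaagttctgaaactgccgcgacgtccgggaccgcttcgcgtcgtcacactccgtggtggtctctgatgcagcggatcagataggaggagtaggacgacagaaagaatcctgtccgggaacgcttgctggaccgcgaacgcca

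Complex I, the NADH dehydrogenase, is the largest complex, with a core of catalytic and proton-pumping subunits and a shell of accessory ones. Of its 42 genes tested, 10 were higher and 3 lower in dKO (median 0.05). These are 23.8% and 7.14%, beside 20.4% and 32.6% of all genes, so the share of higher calls was near the background. Grouped after the values were seen, the 7 nuclear core subunits, which carry the flavin and iron-sulfur clusters, held 0 higher and 1 lower (median -0.12), and the 28 nuclear accessory subunits tested held 8 higher and 2 lower (median 0.10). Without dKO replicate 6, 6 genes of complex I were higher and 5 lower, and without dKO replicate 1, 5 were lower. Without both, 4 were higher and 7 lower, and the median was -0.04.

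Ndufa1, an accessory subunit of the membrane arm, rose most. It lay at 35.8, 38.1 and 50.6 FPKM in CTR (lowest, median and highest library) and 57.04, 63.7 and 67.6 in dKO. All 6 dKO libraries were above all CTR libraries (log2 fold change 0.61 ± 0.09, adjusted p = 8.78e-05). Ndufs4, an accessory subunit whose loss causes Leigh syndrome, lay at 12.6, 14.1 and 15.3 FPKM in CTR and 15.7, 17.4 and 21.1 in dKO, again with no overlap (log2 fold change 0.37 ± 0.08, adjusted p = 0.00207). Ndufa12, an accessory subunit near Ndufs4, was at 21.9, 28.1 and 35.2 FPKM in CTR and 29.8, 36.3 and 50.7 in dKO. Its groups overlapped, with 3 dKO libraries above all CTR libraries (log2 fold change 0.43 ± 0.13, adjusted p = 0.0148), and without dKO replicates 1 and 6 the adjusted p was 0.0689. Ndufa13, also known as Grim19, lay above CTR in all 6 dKO libraries as well (log2 fold change 0.36 ± 0.08, adjusted p = 0.00233); it was named after its values were seen.

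Ndufs3, a core subunit of the arm that reaches into the matrix, had the largest fall of complex I but the least secure one. Its level was 3.02, 3.64 and 7.66 FPKM in CTR and 1.40, 2.59 and 3.51 in dKO. CTR replicates 5 and 6 were the high ones, 4 of 6 dKO libraries were below every CTR library, and the fall (log2 fold change -0.66 ± 0.23, adjusted p = 0.0268) no longer passed the threshold without CTR replicate 5, CTR replicate 6, dKO replicate 2 or dKO replicate 5 (adjusted p 0.056 to 0.0612) or with no filter (adjusted p = 0.0598). Ndufa6, an accessory subunit that holds the mitochondrial acyl carrier protein in place, was the most abundant nuclear gene of complex I by FPKM, at 154, 162 and 166 FPKM in CTR and 106, 118 and 133 in dKO. All 6 dKO libraries were below CTR (log2 fold change -0.44 ± 0.06, adjusted p = 1.22e-04). It overlaps Smdt1 on the other strand, which was at 54.8 FPKM in CTR and 64.4 in dKO (means). Ndufa5, an accessory subunit of the matrix arm, was also lower (log2 fold change -0.22 ± 0.07, adjusted p = 0.0149), with 5 of 6 dKO libraries below CTR, though not after median-of-ratios scaling (adjusted p = 0.106). Ndufb2 was at 0.347 to 0.621 FPKM in CTR and 0.217 to 0.364 in dKO, too low for the test.

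Complex II, succinate dehydrogenase, also belongs to the tricarboxylic acid cycle and has no mtDNA-encoded subunit. Sdhd, which anchors it in the membrane, lay at 56.9, 60.1 and 68.01 FPKM in CTR and 71.9, 80.6 and 102 in dKO. All dKO libraries were above CTR (log2 fold change 0.44 ± 0.08, adjusted p = 8.71e-04). Sdhd shares its locus with Timm8b on the other strand, at 54.6 FPKM in CTR and 69.4 in dKO (means), and the strand setting of the counting is not given in the sources used here, so the reads of such pairs cannot be told apart. Sdhc, the other anchor, lay at 29.1, 31.2 and 34.7 FPKM in CTR and 32.8, 34.7 and 43.3 in dKO and passed narrowly (log2 fold change 0.21 ± 0.08, adjusted p = 0.0435). Its call was lost without any 1 of CTR replicates 2, 3, 5 and 6 or dKO replicates 1, 2, 3 and 6 (adjusted p 0.0509 to 0.0885), which left 1 gene of complex II called. It was also lost after rescaling to TPM (adjusted p = 0.0705), scaling without the mtDNA genes (0.064), with no filter (0.0659) and with the replicate block (0.0503). Without dKO replicates 1 and 6 together its adjusted p was 0.183. The iron-sulfur subunit Sdhb (log2 fold change 0.16, 95% interval -0.03 to 0.35, adjusted p = 0.134) and the flavoprotein Sdha (log2 fold change -0.03, 95% interval -0.18 to 0.12, adjusted p = 0.741) did not pass, although Sdhb did after median-of-ratios scaling (adjusted p = 0.0177).

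In complex III, the cytochrome bc1 complex, 3 genes were higher and 2 lower of 10 tested (30% and 20%, median 0.07). Over all genes tested, 20.4% were higher and 32.6% lower. The 3 that rose encode small subunits without a redox centre. Uqcrh, the hinge protein that assists the contact with cytochrome c1, was at 24.03, 37.1 and 50.7 FPKM in CTR and 48.1, 58.9 and 67.4 in dKO. CTR replicate 4 was the highest CTR library, at 50.7 FPKM, and 5 of 6 dKO libraries were above all CTR libraries (log2 fold change 0.67 ± 0.14, adjusted p = 0.00179). The antisense pseudogene Gm12854 overlaps Uqcrh and was at 20.5 FPKM in CTR and 32.9 in dKO (means). Uqcr11 rose by 0.31 ± 0.09 (adjusted p = 0.00861) on the log2 scale and Uqcr10 by 0.29 ± 0.09 (adjusted p = 0.018), with 1 and 5 of 6 dKO libraries above CTR. Without dKO replicates 1 and 6 the adjusted p of Uqcr10 was 0.0759, and after quantile normalization it was 0.0555.

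The genes of complex III that fell were Uqcrc2, a core protein on the matrix side, and Uqcrq, a small subunit that binds close to cytochrome b. Uqcrc2 lay at 50.6, 53.3 and 55.4 FPKM in CTR and 40.5, 43.3 and 50.1 in dKO, with every dKO library below CTR (log2 fold change -0.27 ± 0.06, adjusted p = 0.00298). Uqcrq lay at 56.8, 67.8 and 86.3 FPKM in CTR and 47.7, 53.9 and 58.6 in dKO, with 5 of 6 below (log2 fold change -0.36 ± 0.09, adjusted p = 0.0062). Cyc1, cytochrome c1, lay at 79.9, 94.4 and 116 FPKM in CTR and 68.9, 82.1 and 113 in dKO with broad overlap (log2 fold change -0.15, 95% interval -0.41 to 0.10, adjusted p = 0.293).

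Complex IV, cytochrome c oxidase, has several subunits in more than 1 isoform, some of them typical of muscle, testis or lung. Of 21 genes tested 8 were higher and 3 lower (38.1% and 14.3%, beside 20.4% and 32.6% of all genes, median 0.13). The Cox6a pair moved in opposite directions. Cox6a2, the isoform of heart and skeletal muscle, lay at 9.31, 13.99 and 17.4 FPKM in CTR (lowest, median and highest library) and 2.58, 3.06 and 5.57 in dKO. All dKO libraries were below CTR, and the mean of dKO was 27.2% of that of CTR (log2 fold change -1.66 ± 0.18, adjusted p = 1.15e-05), with 30 to 68 fragments behind a dKO value and 107 to 201 behind a CTR value. Its ubiquitous counterpart Cox6a1 lay at 189, 214 and 256 FPKM in CTR and 285, 315 and 359 in dKO. Here all dKO libraries were above CTR (log2 fold change 0.56 ± 0.08, adjusted p = 1.42e-04).

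Both isoforms of Cox6b, a subunit at the contact between the monomers of the complex, rose. Cox6b2, the testis isoform, lay at 5.51, 7.55 and 9.27 FPKM in CTR and 13.8, 16.1 and 21.7 in dKO. The groups did not overlap, and the ratio of the group means was 2.25 (log2 fold change 1.08 ± 0.13, adjusted p = 2.90e-05). The ubiquitous Cox6b1 was at 87.9, 95.02 and 107 FPKM in CTR and 111, 126 and 155 in dKO, again without overlap (log2 fold change 0.42 ± 0.09, adjusted p = 0.00205). Cox4i2, a lung isoform of the subunit that senses ATP, was low, at 0.746, 2.996 and 3.49 FPKM in CTR and 2.94, 4.68 and 5.51 in dKO. CTR replicates 5 and 6 were the lowest, and 5 of 6 dKO libraries were above all CTR libraries (log2 fold change 0.70 ± 0.23, adjusted p = 0.0206). Its abundant counterpart Cox4i1 did not pass (log2 fold change 0.13, 95% interval -0.02 to 0.28, adjusted p = 0.14) except after median-of-ratios scaling (adjusted p = 0.0264).

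Cox7a2, the ubiquitous Cox7a isoform, rose with 4 of 6 dKO libraries above CTR (log2 fold change 0.39 ± 0.11, adjusted p = 0.0115), whereas the muscle isoform Cox7a1 was near 1 FPKM in both groups and did not pass (log2 fold change 0.13, 95% interval -0.13 to 0.40, adjusted p = 0.381). Cox8a was among the most abundant subunits, at 226, 234 and 249 FPKM in CTR and 246, 275 and 342 in dKO, and 5 of 6 dKO libraries were above CTR (log2 fold change 0.27 ± 0.08, adjusted p = 0.0154). After quantile normalization its adjusted p was 0.113. The muscle isoform Cox8b was at 0 in 4 CTR libraries and at most 0.329 FPKM in the others, and between 0.179 and 2.84 in dKO. That is at most 17 fragments on a gene that overlaps Psmd13 (25.9 and 28.3 FPKM), and it was not tested. Cox7b2 was listed above 0 only in CTR replicate 6, at 0.108 FPKM.

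Cox7c, a small subunit of complex IV, was lower (log2 fold change -0.25 ± 0.08, adjusted p = 0.0143), with 4 of 6 dKO libraries below CTR, though not after median-of-ratios scaling (adjusted p = 0.0814). Ndufa4, a late-joining subunit, did not pass (log2 fold change 0.00, 95% interval -0.21 to 0.21, adjusted p = 0.989). Its hypoxia-induced relative Ndufa4l2 ranged more widely in dKO, 6.24 to 22.1 FPKM against 9.23 to 14.3 in CTR, and did not pass (log2 fold change 0.29, 95% interval -0.29 to 0.88, adjusted p = 0.372). It overlaps Shmt2 on the other strand, whose mean was 90.8 FPKM in CTR and 26.8 in dKO. Cox7a2l, which joins complexes III and IV into supercomplexes, did not pass (log2 fold change -0.15, 95% interval -0.37 to 0.07, adjusted p = 0.232) except after quantile normalization (adjusted p = 0.0283).

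**Figure D3:**
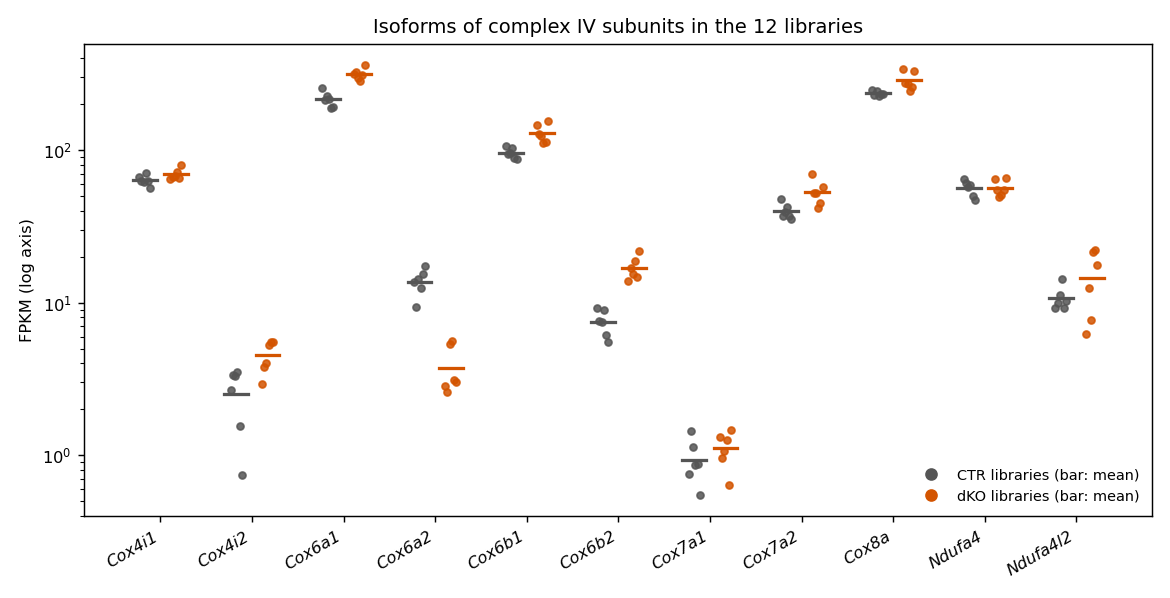
FPKM (log axis) of isoforms and related subunits of complex IV in the 6 CTR and 6 dKO libraries, 1 point per library with a bar at the group mean. Cox6a2 falls from 13.7 to 3.75 FPKM while Cox6a1, Cox6b1 and Cox6b2 lie higher in dKO with no overlap.

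Complex V, the ATP synthase, had 7 genes higher and 2 lower of 19 tested (36.8% and 10.5%, median 0.05). The shares over all genes were 20.4% and 32.6%. Grouped by part of the enzyme, after the values were seen, 4 of the 5 small membrane subunits were higher, while of the 3 genes for subunit c, which forms the rotating ring in the membrane, 2 were lower. Atp5mj, a membrane subunit at the dimer interface, lay at 20.4, 24.1 and 27.3 FPKM in CTR and 31.8, 34.9 and 39.1 in dKO. Atp5mf, subunit f, lay at 16.8, 18.999 and 20.6 FPKM in CTR and 23.8, 24.9 and 31.5 in dKO. In both, all dKO libraries were above CTR, with log2 fold changes of 0.53 ± 0.08 (adjusted p = 1.90e-04) and 0.49 ± 0.09 (adjusted p = 4.98e-04). Atp5me, subunit e, which joins the dimers, rose with 4 of 6 above CTR (log2 fold change 0.50 ± 0.13, adjusted p = 0.00642).

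The catalytic head held 2 higher of 5. Its most abundant subunits, alpha and beta, did not pass: Atp5f1a was at 204, 216 and 237 FPKM in CTR and 185, 192 and 216 in dKO (log2 fold change -0.14, 95% interval -0.28 to -0.01, adjusted p = 0.0609), and Atp5f1b at 187, 225 and 272 FPKM in CTR and 216, 254 and 335 in dKO (log2 fold change 0.23, 95% interval -0.02 to 0.49, adjusted p = 0.116). With the replicate number as a block, a pairing that was not established, the adjusted p of Atp5f1b was 0.0206, and after median-of-ratios scaling it was 0.0268. Atp5f1a passed as lower after rescaling to TPM (adjusted p = 0.0109), scaling without the mtDNA genes (0.0122) and quantile normalization (8.50e-04), and without dKO replicate 1 (0.0285) or dKO replicates 1 and 6 (0.0178). Atp5if1, the inhibitor that blocks the reverse reaction, did not pass (log2 fold change -0.17, 95% interval -0.43 to 0.10, adjusted p = 0.264).

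The genes for subunit c encode the same mature protein. Atp5mc1 lay at 8.19, 10.5 and 12.9 FPKM in CTR and 5.15, 6.12 and 7.62 in dKO. All dKO libraries were below CTR (log2 fold change -0.71 ± 0.11, adjusted p = 2.12e-04). Atp5mc2 lay at 44.1, 46.4 and 52.01 FPKM in CTR and 35.6, 37.2 and 42.3 in dKO, likewise without overlap (log2 fold change -0.31 ± 0.06, adjusted p = 0.0011), and Atp5mc3 (log2 fold change 0.05, 95% interval -0.07 to 0.18, adjusted p = 0.457) did not pass. A near-identical copy of Atp5mc1 ran the other way. The processed pseudogene Gm10039 matches Atp5mc1 at 99.8% over 411 bases, and its FPKM was 33.4 to 52.03 in CTR and 77.04 to 99.2 in dKO. With the fragments of both summed, the log2 fold change was -0.08 and its adjusted p 0.547.

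The copy of Cox7c, Gm12338, identical over 192 bases, was at 23.6 to 30.8 FPKM in CTR and 49.5 to 87.5 in dKO, and the sum of Cox7c and its copies gave -0.09 with an adjusted p of 0.257. For Ndufs3 and its copy Gm12251 (3.03 and 3.22 FPKM on average) the sum stayed lower (-0.51, adjusted p = 0.0408). Genes that rose had copies too. Ndufa12-ps matches Ndufa12 at 99.5% over 402 bases and was at 23.1 FPKM in CTR and 30.3 in dKO (means). Gm16418 matches Uqcr11 at 98.8% over 171 bases and was at 31.5 and 37.6 FPKM. Such copies in the table were found for 26 nuclear subunits, and how the authors' counting divided fragments between a gene and its copy was not tested. They are matches of sequence, and for Ndufs6 they include Rps28, another protein-coding gene (97.5% over 325 bases). The sum for Ndufs6 thus also holds fragments of Rps28, at 82.1 FPKM in CTR and 90.9 in dKO (means).

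The 13 mtDNA genes encode the hydrophobic cores of complexes I, III, IV and V and are transcribed as long precursors that are cut into single mRNAs. Together they held 3.99, 4.37 and 4.56% of the summed FPKM in CTR (lowest, median and highest) and 4.30, 4.50 and 4.68% in dKO, with broad overlap. Of the protein-coding genes alone they held 4.44 to 5.02% and 4.66 to 5.04%. Other measures overlapped less. Their share of the fragments was 1.60, 1.74 and 1.85% in CTR and 1.77, 1.86 and 1.94% in dKO. Their summed FPKM was 11672, 12669 and 13416 in CTR and 13105, 13508 and 14273 in dKO.

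The mtDNA genes fell into separate levels. The 7 genes mt-Co1, mt-Cytb, mt-Nd1, mt-Nd5, mt-Nd2, mt-Nd4 and mt-Nd6 had mean FPKM between 399 and 6846, and the other 6 (mt-Co2, mt-Co3, mt-Atp6, mt-Nd3, mt-Nd4l and mt-Atp8) between 0.121 and 42.1. For each of these 6 the nuclear genome holds an identical copy over at least 99.1% of the gene, all on chromosome 1 of GRCm39 between 24651485 and 24654646, and the 7 abundant genes have no identical copy of full length. The authors kept only reads that aligned in 1 place. The part of this filter in the low levels was not tested.

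**Figure D4:**
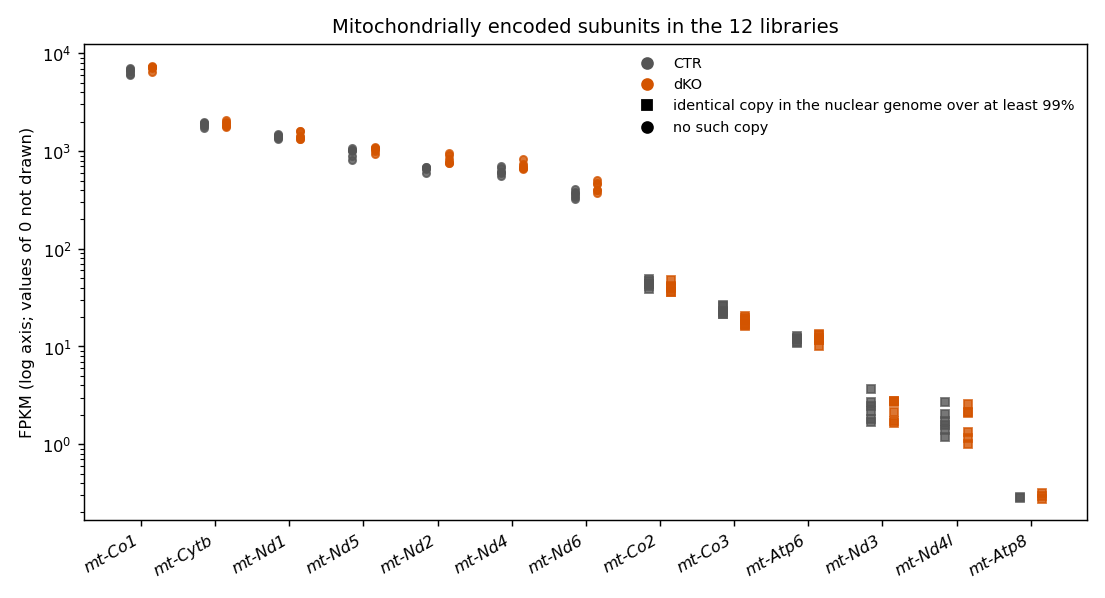
FPKM (log axis) of the 13 mtDNA-encoded subunits in the 12 libraries, ordered by mean, with squares for genes that have an identical nuclear copy over at least 99.1% of their length and circles for the others. The highest square is mt-Co2 at 48.6 FPKM and the lowest circle mt-Nd6 at 325 FPKM.

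Among the abundant mtDNA genes, mt-Nd2 (complex I) rose. It lay at 598, 669 and 691 FPKM in CTR and 757, 804 and 966 in dKO, with all dKO libraries above CTR (log2 fold change 0.33 ± 0.08, adjusted p = 0.00334). After quantile normalization this was 0.08 (adjusted p = 0.468). The light-strand gene mt-Nd6 lay at 325, 366 and 411 FPKM in CTR and 374, 429 and 505 in dKO and passed narrowly (log2 fold change 0.25 ± 0.09, adjusted p = 0.0323). It overlaps mt-Nd5 on the other strand, and its call was lost in 6 of the 12 analyses that left out 1 library: CTR replicate 1, 3 or 6, or dKO replicate 3, 4 or 6 (adjusted p 0.061 to 0.0678). It was also lost after rescaling to TPM (adjusted p = 0.0543), scaling without the mtDNA genes (0.0525), quantile normalization (0.0769) and with no filter (0.0829). The other abundant genes did not pass: mt-Co1 at 6048, 6593 and 7108 FPKM in CTR and 6417, 7221 and 7495 in dKO (log2 fold change 0.11, 95% interval -0.06 to 0.28, adjusted p = 0.24), mt-Cytb (log2 fold change 0.02, 95% interval -0.13 to 0.17, adjusted p = 0.837), mt-Nd1 (log2 fold change 0.03, 95% interval -0.13 to 0.19, adjusted p = 0.76), mt-Nd4 (log2 fold change 0.19, 95% interval 0.01 to 0.37, adjusted p = 0.071) and mt-Nd5 (log2 fold change 0.10, 95% interval -0.07 to 0.28, adjusted p = 0.293). mt-Nd4 passed as higher after median-of-ratios scaling (adjusted p = 0.0127), with length and GC trends removed (0.00998) and without CTR replicate 4 (0.0322).

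Of the 6 mtDNA genes with identical nuclear copies, mt-Co3 was lower, at 21.3, 22.9 and 26.5 FPKM in CTR and 16.2, 17.7 and 20.7 in dKO. All dKO libraries were below CTR (log2 fold change -0.36 ± 0.08, adjusted p = 0.00177). Its pseudogene copy Gm28437 was at 21.6 ± 1.34 and 16.4 ± 3.11 FPKM (mean ± SD, n = 6 each), with the lower mean in dKO as well. mt-Co2 (log2 fold change -0.13, 95% interval -0.29 to 0.04, adjusted p = 0.181), mt-Atp6 (log2 fold change 0.03, 95% interval -0.12 to 0.17, adjusted p = 0.767), mt-Nd3 (log2 fold change -0.05, 95% interval -0.35 to 0.26, adjusted p = 0.805) and mt-Nd4l (log2 fold change -0.04, 95% interval -0.39 to 0.31, adjusted p = 0.842) did not pass, and mt-Atp8, with at most 1 fragment per library, was not tested. mt-Co2 passed as lower without dKO replicates 1 and 6 (adjusted p = 0.0439).

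Other mitochondrial genes were read from 6 lists, against the 20.4% higher and 32.6% lower and the median of -0.10 of all genes. Of 22 genes tested for transcription, replication and RNA stability of mtDNA, 0 were higher and 20 lower (90.9% lower, median log2 fold change -0.41). Over the alternatives tried, 0 were higher and the median stayed between -0.52 and -0.33. The largest fall among them was that of Polg2, the accessory subunit of the mtDNA polymerase, at 1.16, 1.74 and 2.01 FPKM in CTR and 0.627, 0.722 and 0.989 in dKO with no overlap (log2 fold change -0.57 ± 0.09, adjusted p = 2.33e-04). Tfam, which packs and transcribes mtDNA, and the mitochondrial RNA polymerase Polrmt fell by 0.45 and 0.40 on the log2 scale (adjusted p = 3.93e-04 and 8.99e-04; both were named after their values were seen). The mRNAs that this machinery makes, the mtDNA-encoded subunits, had 2 higher and 1 lower of 12 tested. The lower one, mt-Co3, is among the genes with an identical nuclear copy.

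The assembly factors, which build the complexes but are not part of them, had 4 higher and 18 lower of 39 tested (10.3% and 46.2%, median -0.20). Ndufaf6, which assists the assembly of complex I, fell most, with 4 of 6 dKO libraries below CTR (log2 fold change -0.77 ± 0.21, adjusted p = 0.00726), and Uqcc3, an assembly factor of complex III, rose most, with all dKO libraries above CTR (log2 fold change 0.52 ± 0.09, adjusted p = 3.85e-04). Of the enzymes of the tricarboxylic acid cycle and pyruvate dehydrogenase, 0 were higher and 10 lower of 16 (62.5% lower, median -0.21), with the largest fall in Dlat of the pyruvate dehydrogenase complex (log2 fold change -0.45 ± 0.09, adjusted p = 0.00113). Electron carriers and ubiquinone synthesis had 0 higher and 5 lower of 15 (33.3% lower, median -0.12), so their share of lower calls and their median were near those of all genes. The largest fall was that of Coq8b, a kinase-like protein of ubiquinone synthesis (log2 fold change -0.70 ± 0.10, adjusted p = 8.21e-05).

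Carriers, channels and the import machinery had 1 higher and 11 lower of 23 (4.35% and 47.8%, median -0.20). The chaperone Hspa9 fell most (log2 fold change -0.96 ± 0.16, adjusted p = 3.59e-04), and the outer-membrane channel Vdac2 was the one that rose (log2 fold change 0.47 ± 0.07, adjusted p = 1.39e-04). Among regulators of respiratory genes, 1 was higher and 6 lower of 13 (7.69% and 46.2%, median -0.05). Esrra, a nuclear receptor that activates respiratory genes, was the one that rose (log2 fold change 0.40 ± 0.07, adjusted p = 4.04e-04), and Nfe2l1 fell most (log2 fold change -0.54 ± 0.10, adjusted p = 7.56e-04). Over the alternatives the medians of the assembly factors, the tricarboxylic acid cycle, the electron carriers and the carriers and import genes stayed below 0, while that of the regulators lay between -0.11 and 0.04.

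**Figure D5:**
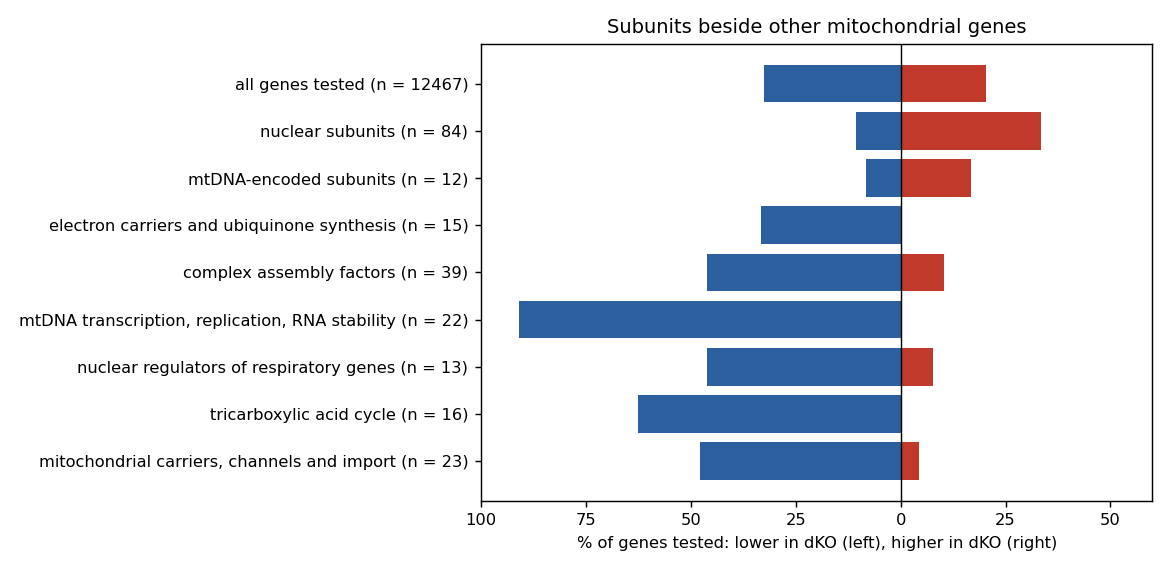
Share of the genes tested (%) that were lower (left of 0) or higher (right of 0) in dKO at an adjusted p under 0.05, for all genes, the nuclear and mtDNA-encoded subunits and 6 lists of other mitochondrial genes, with the number tested. The nuclear subunits have 33.3% higher and 10.7% lower, and the genes for mtDNA transcription and replication have 90.9% lower and 0% higher.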

How the data were processed

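RNA of MLECs was sequenced in 12 libraries, 6 of CTR and 6 of dKO mice. Per the methods, read quality was viewed in FastQC, adapters were removed by Trimmomatic and STAR mapped the reads to mm39. sambamba extracted reads with a unique alignment, which were mapped a second time. The authors deposited FPKM values. The submitters' processing notes also list Bowtie2 2.2.3, HISAT2 2.1.0, TopHat2 and DESeq2 without their roles. The counting program, the annotation and the strand setting are not given in the sources used here. The library kit is named differently in the labels and in the methods.

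From the deposited FPKM, log2(FPKM + 1) was computed for the 12467 genes that reached 1 FPKM in 6 or more libraries. A fold change on this scale understates that of low genes. limma 3.58.1 in R 4.3.3 was used (lmFit, eBayes with a trend, no covariates), with Benjamini-Hochberg adjustment over all genes tested and a threshold of 0.05. Exact two-sided permutation tests were made for single genes. Fragments were recovered from the FPKM steps, with 100% of genes whole within 0.002 fragments, and a library held 15523054 to 17938286. On a gene of 2 kb 1 fragment was worth 0.0279 to 0.0322 FPKM. Genes were matched by identifier to the GENCODE annotation of GRCm39, and near-identical copies were sought with BLAST 2.17.0 (at least 95% identity over at least 150 bases and 50% of the copy's transcript). Promoters came from RefSeq (GRCm38.p6). Other steps ran in Python 3.11.15 with pandas 2.3.3, NumPy 2.4.6, SciPy 1.17.1, numba 0.67.0 and Matplotlib 3.10.9, and the test was checked on simulated data.

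The members and lists were chosen with earlier results of these data known. Genes named are all mtDNA-encoded and complex II genes, in each other complex the 3 largest rises and the 3 largest falls past the threshold and the 2 most abundant nuclear genes, the isoforms of complex IV, Cyc1, Cox7a2l and Atp5if1, genes not tested, Sp1 and Sp3, and in each list the largest rise and fall. Any other gene was named after its values were seen. A gene that the rule names is not reported here. Lists were described by counts and medians with no set test. Alternatives were TPM, median-of-ratios scaling, scaling without mtDNA genes, quantile normalization, pseudocounts of 0.1 and 0.01, no filter or a filter of 5 FPKM, removal of length and GC trends, limma-voom on the recovered fragments, summing members with their copies, the replicate number as a block, robust eBayes and leaving out each library. Leaving out dKO replicates 1 and 6 together was added after seeing the data.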

Additional observations from a re-analysis of the deposited data

Results flagged for a closer look

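In 7 of 134 groups of 6 values 1 library stood far from the other 5 by Dixon's criterion, and chance gives about 1 in 20 groups, or 6.7. Among the subunits, mt-Nd2 was at 598 FPKM in CTR replicate 6 and at 656 to 691 in the other CTR libraries. Uqcr11 was at 59.1 FPKM in CTR replicate 1 against 38.8 to 44.4, and this library was the highest CTR library for 44 of the 84 nuclear subunits tested. Atp5mc2 was at 42.3 FPKM in dKO replicate 6 against 35.6 to 37.8, and Cox7b2 was at 0.108 FPKM in CTR replicate 6 and at 0 in the other CTR libraries. Outside the subunits, Esrra was at 19.2 FPKM in dKO replicate 1 against 14.5 to 16.05, Nfe2l1 at 83.97 in dKO replicate 5 against 58.2 to 63.02, and Hspa9 at 216 in dKO replicate 1 against 122 to 157.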

How the results depend on the processing

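Counts and medians that moved were as follows. After rescaling to TPM, they were 14 for nuclear subunits called lower, 1 for mtDNA genes called higher, 7 for complex I genes called lower and 1 for complex II genes called higher. After median-of-ratios scaling, they were 17 for complex I genes called higher and 0.16 for the complex III median log2 fold change. After scaling without the mtDNA genes, they were 1 for mtDNA genes called higher, 6 for complex I genes called lower and 1 for complex II genes called higher. After quantile normalization, they were 0 for mtDNA genes called higher, 2 for mtDNA genes called lower and 6 for complex I genes called lower. With no filter, they were 1 for mtDNA genes called higher and 1 for complex II genes called higher. With length and GC trends removed, they were 14 for nuclear subunits called lower and 8 for complex I genes called lower. With genes and copies summed, they were 1 for complex V genes called lower. With the replicate block, they were 1 for complex II genes called higher. Without dKO replicates 1 and 6, they were 16 for all subunits called lower, 14 for nuclear subunits called lower, 1 for mtDNA genes called higher, 2 for mtDNA genes called lower, 4 for complex I genes called higher, 7 for complex I genes called lower, 1 for complex II genes called higher and 0.0699 for the complex II median log2 fold change. Leaving out 1 library at a time gave 1 to 3 for mtDNA genes called higher, 1 to 2 for complex II genes called higher, 2 to 5 for complex I genes called lower and 6 to 12 for complex I genes called higher. The other counts and medians by genome and complex stayed within 1.5 times or the spread between libraries. Of the 61 genes named with a fit, 28 changed their call or sign in at least 1 alternative, and each change of sign was of a gene whose main value did not pass. After rescaling to TPM the log2 fold change was -0.0205 for mt-Nd1, -0.0303 for mt-Cytb, -0.0205 for mt-Atp6 and -0.0470 for Ndufa4. After median-of-ratios scaling the log2 fold change was 0.0170 for mt-Nd3, 0.0125 for mt-Nd4l and 0.0590 for Sdha. After scaling without the mtDNA genes the log2 fold change was -0.0163 for mt-Nd1, -0.0261 for mt-Cytb, -0.0153 for mt-Atp6 and -0.0424 for Ndufa4. After quantile normalization the log2 fold change was -0.27 for mt-Nd1, 0.0104 for mt-Nd3, -0.0410 for mt-Nd4, -0.0464 for mt-Nd5, -0.16 for mt-Cytb, -0.00197 for mt-Co1 and -0.0473 for Ndufa4. With length and GC trends removed the log2 fold change was 0.24 for mt-Nd3, 0.12 for mt-Nd4l, 0.0314 for Sdha and -0.00436 for Cox4i1. With genes and copies summed the log2 fold change was -0.0845 for mt-Atp6. Without dKO replicates 1 and 6 the log2 fold change was -0.0444 for mt-Nd1, -0.0312 for mt-Cytb and -0.10 for Ndufa4. mt-Nd1 after quantile normalization was the one with an adjusted p under 0.05 (0.0243). Signs also changed when 1 library was left out, for mt-Cytb (-0.00761 to 0.0422, changed without CTR replicate 1 and without dKO replicate 6), mt-Nd3 (-0.11 to 0.0480, changed without CTR replicate 3, without dKO replicate 5 and without dKO replicate 6), mt-Nd4l (-0.13 to 0.0454, changed without CTR replicate 4, without dKO replicate 3 and without dKO replicate 6), Ndufa4 (-0.0488 to 0.0401, changed without CTR replicate 5, without CTR replicate 6, without dKO replicate 1 and without dKO replicate 6), mt-Atp6 (-0.00223 to 0.0686, changed without dKO replicate 2) and mt-Nd1 (-0.00199 to 0.0516, changed without dKO replicate 6). The causes of these changes were not tested.

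Replicate numbers are shared between the groups. Same-numbered libraries deviated from their group means with correlations of 0.436, 0.156, -0.0446, 0.565, 0.0104 and -0.108. The best-correlated dKO library had the same number for CTR replicates 1 and 4, and another number for CTR replicates 2, 3, 5 and 6. A pairing by number was thus not established, and a link between some same-numbered libraries was not tested. The replicate block gave 30 subunits higher and 11 lower. The medians of complexes I and III ended below 0 without dKO replicates 1 and 6, and that of the mtDNA genes also after rescaling to TPM, scaling without the mtDNA genes and quantile normalization (ranges over all alternatives -0.0354 to 0.14, -0.00554 to 0.16 and -0.0217 to 0.13), whereas those of all subunits, the nuclear subunits and complexes II, IV and V stayed above 0. Low levels limit Ndufb2, Cox8b, Cox7b2 and mt-Atp8, which were not tested.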
